A study of Rattus norvegicus with 48 samples.

Results

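The miR-29 family of rat liver is described here across partial hepatectomy (PHx), chronic ethanol feeding and inhibition of miR-21. Members were taken by name, as each row of the deposited table called rno-miR-29 followed by a letter, which gave rno-miR-29a, rno-miR-29b and rno-miR-29c, 3 miRNAs beside 140 others in the table. The table holds only part of the miRNAs that the assay probed, and all miRNAs and total counts below mean those of the table. Whole liver RNA of 48 male Sprague-Dawley rats, 3 in each of 16 groups, was read with the NanoString nCounter assay, in which every miRNA has a coloured probe that is counted directly, with no amplification. The study asked how ethanol adaptation alters miRNAs of the regenerating liver and which miRNAs follow miR-21.

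Feeding with Lieber-DeCarli liquid diet lasted 6 to 8 weeks, in animals 8 to 14 weeks old. Ethanol supplied 36% of calories in one diet (EtOH), and pair-fed controls received carbohydrate in its place (CHO). Untreated rats of both diets, 24 in 8 groups, were collected before surgery (0 h) and at 6, 24 and 72 h after 70% PHx. Further rats of both diets received saline or AM21 and were collected at 0 and 24 h. AM21 is a locked nucleic acid oligonucleotide antisense to miR-21, given at 7.5 mg/kg, first 72 h before surgery and again right after it. Rats of 0 h had no surgery before collection, so on this schedule they had only the first injection. In saline-treated and AM21-treated rats 24 h and 0 h therefore also differ in the number of injections. The labels give each animal a first number, here called its set. Each of sets 1 to 3 holds 1 animal of every group at 0 and 24 h, and set 4 holds all animals of 6 and 72 h, so a difference of 6 or 72 h from 0 h cannot be told apart from a difference between sets.

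miR-29 miRNAs bind mRNAs of collagens and other extracellular matrix proteins and lower their amounts, which is why the family is called antifibrotic. In liver, hepatic stellate cells lose miR-29 as they turn into matrix-producing myofibroblasts, and restoring it in such cells lowers collagen synthesis. Because all members carry the same seed, the stretch that pairs with target mRNAs, they share most predicted targets.

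The mature sequences show how alike the probes' targets are. They were taken from RefSeq (build GRCr8), where all 3 members matched by name; the table names no arm, and the 3p arm is the one that the old name without an arm stands for. Capitals mark the seed, bases 2 to 8.
rno-miR-29a: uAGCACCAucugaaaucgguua
rno-miR-29b: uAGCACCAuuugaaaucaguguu
rno-miR-29c: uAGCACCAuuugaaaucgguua
The 3 members had 1 seed between them, and none of the table's other miRNAs carried it, among the 123 (members included) whose sequence was found by name. With positions counted from 1 at the 5′ end, rno-miR-29a and rno-miR-29c differed at 1 of 22 bases, C10U. From rno-miR-29a to rno-miR-29b the differences over the 22 compared bases were C10U, G18A, U21G and A22U. From rno-miR-29b to rno-miR-29c they were A18G, G21U and U22A. How far a probe also reads a near-identical member cannot be measured from the table, and levels are not compared between probes.

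The members come from 4 loci in 2 clusters. The sequence of rno-miR-29a lies at chr4:60617968-60617989 on the minus strand, with a copy of rno-miR-29b at chr4:60618342-60618364 on the same strand. The other copy of rno-miR-29b, with an identical mature sequence, lies at chr13:109098882-109098904 on the plus strand, near rno-miR-29c at chr13:109099412-109099433. The hairpins are 291 bases apart in the first cluster and 447 in the second. The assay reads the mature sequence, so the share of rno-miR-29b that came from each cluster was not measured.

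Total counts per animal ran from 58168 to 267582 with a median of 160078. In 6 animals the total was below 100000, namely CHO-fed and EtOH-fed replicate 2 of 0 h (58168 and 92245), replicate 2 at 24 h in CHO-fed rats (92286), replicates 4_1 (87009) and 4_2 (87256) at 6 h in CHO-fed rats, and replicate 4_6 at 6 h in EtOH-fed rats (97827). The label liver was checked with miR-122, a hepatocyte miRNA, which took 42.1% to 68.8% of an animal's counts. Levels are given as log2 CPM, the log2 of counts scaled to a common total (CPM) that the authors deposited after TMM scaling, and differences are on the same log2 scale. A change is called where limma's two-sided test, adjusted over all miRNAs of the table by the Benjamini-Hochberg method, gave an adjusted p under 0.05. Where all animals of a group lay above or below all of another, how many of all miRNAs did so was not counted.

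The probe of rno-miR-29a gave 1947 to 8798 counts per animal (median 5073.5). Counts of rno-miR-29b ran from 54 to 450 with a median of 180.5, and those of rno-miR-29c from 173 to 1769 with a median of 890.5. The spread between animals of a group was 0.16 for rno-miR-29a, 0.37 for rno-miR-29b and 0.36 for rno-miR-29c (pooled SD of 16 groups of 3). Counting error alone gives an SD of 0.11 for rno-miR-29b at its median count and 0.20 at its lowest. These errors cover counting only; extraction, hybridization and scaling error were not measured.

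Ordered by group mean, rno-miR-29a was highest in AM21-treated CHO-fed rats at 0 h (15.29 ± 0.18, SD, n = 3) and lowest in untreated EtOH-fed rats at 72 h (14.26 ± 0.07). Only 1 of the 15 steps between neighbouring groups in this order was larger than the pooled SD, the step of 0.40 from CHO-fed to EtOH-fed rats at 72 h. rno-miR-29b was highest in AM21-treated EtOH-fed rats at 24 h (10.61 ± 0.24) and lowest in CHO-fed rats at 6 h (9.54 ± 0.32). rno-miR-29c was highest in the same AM21-treated group (12.86 ± 0.08) and lowest in EtOH-fed rats at 6 h (11.79 ± 0.28). For rno-miR-29b and rno-miR-29c, 0 of 15 neighbouring steps exceeded the pooled SD. Group means spanned 1.03 for rno-miR-29a, 1.07 for rno-miR-29b and 1.08 for rno-miR-29c.

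At 6 h after PHx, rno-miR-29b and rno-miR-29c were lower than at 0 h and rno-miR-29a was not detectably different. In CHO-fed rats rno-miR-29b was 10.51, 9.74 and 10.69 at 0 h, against 9.22, 9.53 and 9.86 at 6 h. In EtOH-fed rats it was 10.25, 10.06 and 11.11 at 0 h and 9.52, 9.82 and 9.55 at 6 h. All 3 EtOH-fed animals of 6 h lay below all 3 of 0 h, and in CHO-fed rats 1 animal of 6 h lay above replicate 2 of 0 h. Averaged over the diets, rno-miR-29b fell by 0.81 (SE 0.18, 95% interval -1.18 to -0.44, 6 animals against 6, limma adjusted p = 0.00284), to 57.1% of its level at 0 h. By diet the difference was -0.84 in EtOH-fed rats (SE 0.25, limma adjusted p = 0.0363, called) and -0.78 in CHO-fed rats (SE 0.25, limma adjusted p = 0.0632, not called).

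For rno-miR-29c the values in CHO-fed rats were 12.95, 11.41 and 12.86 at 0 h, against 11.53, 11.81 and 12.17 at 6 h. In EtOH-fed rats they were 12.47, 11.95 and 13.03 at 0 h and 12.10, 11.67 and 11.58 at 6 h. Replicate 2 was the lowest of 0 h in each diet, and its values overlap those of 6 h. rno-miR-29c fell by 0.64 over both diets (SE 0.22, 95% interval -1.08 to -0.19, limma adjusted p = 0.0323), to 64.4%, and was not called in either diet alone (-0.57 and -0.70, limma adjusted p = 0.223 and 0.132). CHO-fed rats had rno-miR-29a values of 15.13, 14.90 and 14.72 at 0 h, against 14.83, 15.05 and 15.04 at 6 h. The EtOH-fed rats had 15.08, 15.00 and 14.93, then 15.10, 14.94 and 14.87, and the groups overlapped in both diets. Its difference over both diets was 0.01 (SE 0.11, 95% interval -0.22 to 0.23, limma adjusted p = 0.951).

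Of all miRNAs, 24.5% were called at 6 h over both diets (13 higher and 22 lower), against 2 of the 3 members, both lower. In EtOH-fed rats 11.2% were called, with 1 member, and in CHO-fed rats 2.1%, with no member. The call for rno-miR-29b in EtOH-fed rats was lost without replicate 1 (-0.95, limma adjusted p = 0.0811) or 3 of 0 h (-0.52, 0.293), or without replicate 4_4 (-0.78, 0.0929), 4_5 (-0.93, 0.0566) or 4_6 (-0.80, 0.118). It was also lost with saline animals averaged in (-0.46, 0.173), with only the groups compared (-0.84, 0.130) and with total counts without miR-122 (-0.72, 0.0518), and over its alternatives the limma adjusted p ran from 0.00478 to 0.293. Over both diets, averaging the saline animals of 0 h in took the fall of rno-miR-29b from 0.81 to 0.50 (limma adjusted p = 0.0231, still called). The call for rno-miR-29c over both diets was lost, with limma adjusted p of 0.0550 to 0.109, without replicate 1 or 3 of 0 h in either diet (-0.64 to -0.50) and without replicate 4_1, 4_2, 4_5 or 4_6 (-0.63 to -0.56). It was also lost with only the groups compared (-0.64, limma adjusted p = 0.118). Without CHO-fed replicate 2 of 0 h, the animal with the lowest total count, both were called in CHO-fed rats (-1.07 and -1.07, limma adjusted p = 0.00581 in each). Without EtOH-fed replicate 2 of 0 h, rno-miR-29c was called in EtOH-fed rats (-0.97, limma adjusted p = 0.0242). Over all alternatives the limma adjusted p of the result over both diets ran from 0.000236 to 0.0589 for rno-miR-29b and from 0.000431 to 0.203 for rno-miR-29c. With the set as a random block none of the 3 calls at 6 h was kept (limma adjusted p = 0.0589 and 0.203 over both diets and 0.110 for rno-miR-29b in EtOH-fed rats), and 3 instead of 35 miRNAs were called over both diets. Because the samples are bulk tissue, fewer cells of a type and less RNA per cell cannot be told apart.

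**Figure D1:**
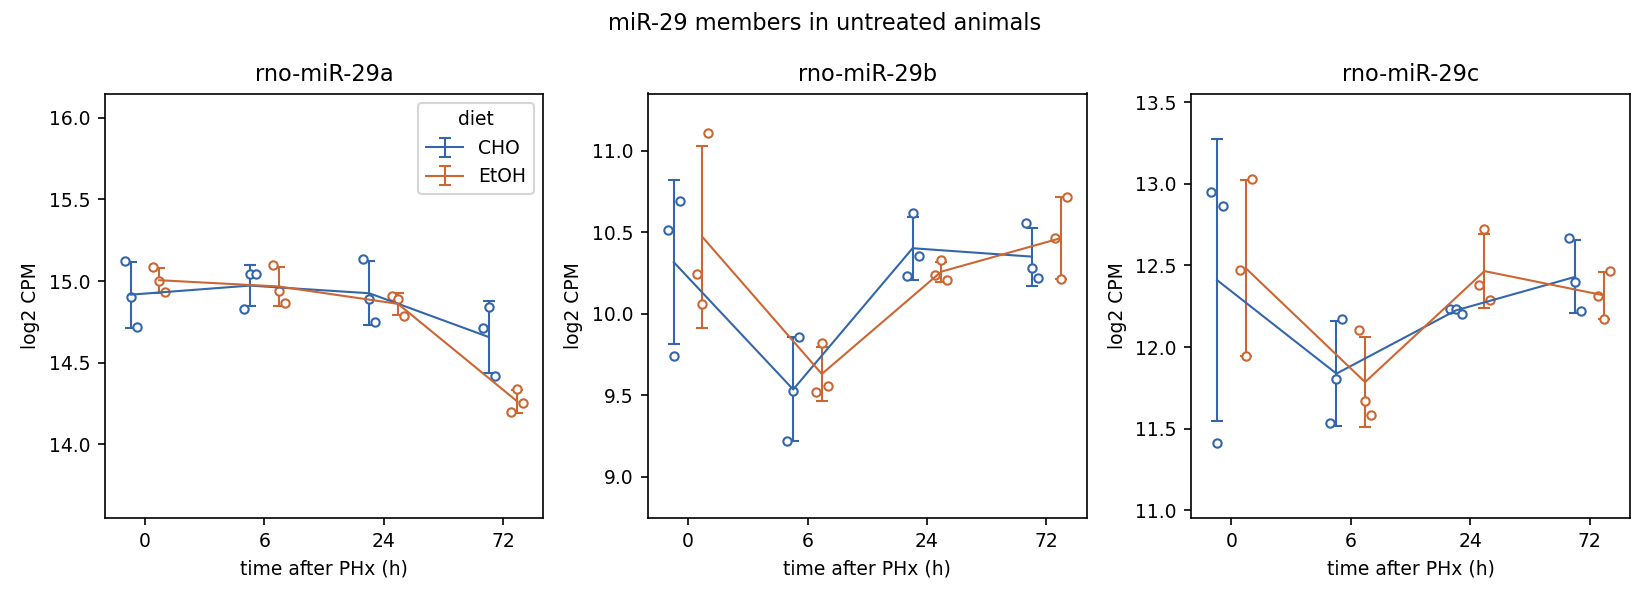
Levels of the 3 members in untreated animals at 0, 6, 24 and 72 h after PHx, in log2 CPM, by diet. Circles are single animals, lines join group means and bars are the SD of 3 animals; rno-miR-29b and rno-miR-29c are lowest at 6 h, and rno-miR-29a is lowest at 72 h, where the 3 EtOH-fed animals lie between 14.20 and 14.34.

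At 72 h rno-miR-29a was called lower than at 0 h, and rno-miR-29b and rno-miR-29c were not called. No difference between members passed its own test from 0 to 72 h (exact permutation adjusted p of 0.127, 0.246 and 0.51). rno-miR-29a was 14.71, 14.84 and 14.42 in CHO-fed rats and 14.20, 14.34 and 14.25 in EtOH-fed rats. The 3 EtOH-fed values are the lowest of all 48 animals, and in CHO-fed rats 2 of the 3 animals lay below all of 0 h. Against 0 h, rno-miR-29a fell by 0.50 over both diets (SE 0.11, 95% interval -0.73 to -0.28, limma adjusted p = 0.00113), to 70.7%. It fell by 0.74 in EtOH-fed rats (SE 0.15, limma adjusted p = 0.00185), to 59.8%, with all 3 animals below all 3 of 0 h. In CHO-fed rats the difference was -0.26 (SE 0.15, 95% interval -0.58 to 0.06, limma adjusted p = 0.221), but it was called with total counts as the scale (-0.56, limma adjusted p = 0.0215) and with saline animals averaged in (-0.38, 0.0302).

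rno-miR-29b at 72 h was 10.55, 10.28 and 10.22 in CHO-fed and 10.46, 10.21 and 10.71 in EtOH-fed rats. rno-miR-29c was 12.67, 12.40 and 12.22 in CHO-fed and 12.31, 12.17 and 12.46 in EtOH-fed rats. Both lay within the range of 0 h. Their differences from 0 h over both diets were 0.01 (95% interval -0.35 to 0.38, limma adjusted p = 0.946) and -0.07 (95% interval -0.52 to 0.37, limma adjusted p = 0.827). Without the animals under 100000 counts rno-miR-29c was -0.46 and called (limma adjusted p = 0.0147). Of all miRNAs, 35.7% were called at 72 h against 0 h over both diets, 18.2% in CHO-fed rats and 18.2% in EtOH-fed rats, against 1, 0 and 1 of the 3 members. With the set as a random block 23 instead of 51 miRNAs were called over both diets.

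The comparison of 72 h with 6 h lies within set 4. All 6 animals of 72 h were above all 6 of 6 h in rno-miR-29b and in rno-miR-29c. The share of all miRNAs that separated in this way was not counted. rno-miR-29b rose by 0.82 (SE 0.18, 95% interval 0.46 to 1.19, limma adjusted p = 0.000566), a 1.77-fold difference, and was called in CHO-fed (0.81, limma adjusted p = 0.0190) and EtOH-fed rats (0.83, limma adjusted p = 0.0122). rno-miR-29c rose by 0.56 (SE 0.22, 95% interval 0.12 to 1.01, limma adjusted p = 0.0340), a 1.48-fold difference, and was not called in either diet alone (0.59 and 0.53, limma adjusted p = 0.150 and 0.192). rno-miR-29a fell by 0.51 (SE 0.11, 95% interval -0.74 to -0.28, limma adjusted p = 0.000564), with -0.70 in EtOH-fed rats (limma adjusted p = 0.00171, called) and -0.31 in CHO-fed rats (limma adjusted p = 0.130). In this comparison 46.9% of all miRNAs were called over both diets, 30.8% in CHO-fed and 37.1% in EtOH-fed rats, against 3, 1 and 2 of the 3 members.

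Total counts ran lower at 6 h (87009 to 196972) than at 72 h (163533 to 267582) with some overlap, and their part in these differences cannot be told apart from that of time. With the log10 total count as a covariate rno-miR-29c was 0.05 (limma adjusted p = 0.853). Without the animals under 100000 counts it was 0.34 (limma adjusted p = 0.0962). Its call was lost in both (limma adjusted p of 0.00258 to 0.853 over the alternatives). Other scales also ended this call. These were total counts (0.45, limma adjusted p = 0.122), total counts without miR-122 (0.43, 0.0614) and the geometric mean of the 100 highest probes (0.43, 0.0607). rno-miR-29b in CHO-fed rats was 0.55 with the covariate (limma adjusted p = 0.220) and 0.49 without the animals under 100000 counts (limma adjusted p = 0.261). With total counts as the scale it was 0.70 and also not called (limma adjusted p = 0.0658, with 0.00681 to 0.261 over the alternatives). In EtOH-fed rats it was 0.60 with the covariate (limma adjusted p = 0.0925; 0.00336 to 0.0925 over the alternatives). Over both diets rno-miR-29b and rno-miR-29a stayed called under all 11 other settings and without any 1 of the 12 animals. Single animals also ended calls with limma adjusted p of 0.0539 to 0.0982. For rno-miR-29b these were 4_1 (0.66), 4_2 (0.81) and 4_7 (0.71) in CHO-fed rats and 4_12 (0.71) in EtOH-fed rats. For rno-miR-29c they were 4_1, 4_2, 4_5, 4_6, 4_7, 4_8, 4_10 and 4_12 (0.49 to 0.57).

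The unequal course of the members was tested on the difference between 2 members within each animal, which does not depend on scaling. Animals were exchanged within diet and treatment, in exact two-sided permutation tests of 400 arrangements for 6 and 72 h, and p-values were adjusted over 12 such tests by the Benjamini-Hochberg method. From 0 to 6 h, rno-miR-29b minus rno-miR-29a changed by -0.82 (exact permutation p = 0.005, the smallest that 400 arrangements can give, adjusted p = 0.015), in the same direction in CHO-fed (-0.84) and EtOH-fed rats (-0.80). The test takes the animals as independent, although the untreated 0 h animals of the 2 diets deviated together by number (r = 0.516, 0.793 and 0.654 for numbers 1 to 3), so this p may be too small, as may those of 72 h against 0 h. The difference of rno-miR-29c from rno-miR-29a moved by -0.64 and did not pass (exact permutation p = 0.07, adjusted p = 0.105). Without replicate 2 of 0 h in CHO-fed rats it was -0.89 (adjusted p = 0.0171), and without replicate 4_4 the first difference was -0.76 with an adjusted p of 0.05, both in exact permutation tests.

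From 6 to 72 h, rno-miR-29b minus rno-miR-29a changed by 1.33 and rno-miR-29c minus rno-miR-29a by 1.07, each with an exact permutation p = 0.005, the smallest possible, and an adjusted p of 0.015. In both, all 6 animals of 72 h lay above all 6 of 6 h. The pair rno-miR-29b minus rno-miR-29c changed by 0.26 (exact permutation p = 0.01, adjusted p = 0.024). Its call was lost without 4_9 (0.24), 4_10 (0.26), 4_11 (0.29) or 4_12 (0.23), with exact permutation adjusted p of 0.05 to 0.105, and without 4_4 it was 0.15. From 0 to 72 h no pair passed, with changes of 0.51, 0.43 and 0.09 and exact permutation adjusted p of 0.127, 0.246 and 0.51. Without replicate 3 of 0 h in CHO-fed rats the first of these was 0.66 (exact permutation adjusted p = 0.0429).

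Markers of other cell types were summed in each animal, and their part in the changes of the members was not tested. The endothelial list holds miR-126 alone (1 of 1 in the table, never at 0). Its CPM in CHO-fed rats was 40362, 18149 and 45451 at 0 h and 16191, 18902 and 21515 at 6 h. Among EtOH-fed rats it was 38138, 20957 and 46454 at 0 h and 19940, 17359 and 13134 at 6 h. Replicate 2 was the low animal of 0 h in both diets, as for rno-miR-29b and rno-miR-29c. At 24 h the sums were 28295, 23892 and 33963 in CHO-fed and 37986, 27849 and 25268 in EtOH-fed rats, and at 72 h 25492, 30347 and 30891 in CHO-fed and 36836, 31380 and 34891 in EtOH-fed rats. miR-126 fell by 0.89 at 6 h (SE 0.21, limma adjusted p = 0.00393) and rose by 0.83 from 6 to 72 h (SE 0.21, limma adjusted p = 0.00173), both over both diets. With the set as a random block no marker call at 6 h against 0 h was kept in any list (miR-126 limma adjusted p = 0.0589), while all those from 6 to 72 h were kept.

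For stellate and other mesenchymal cells 4 of 5 listed miRNAs were in the table, without miR-214. The most abundant was miR-145 with 72.8% of the summed CPM, and no value was 0. Summed CPM in CHO-fed rats was 22276, 21885 and 21319 at 0 h, 24810, 22775 and 31106 at 6 h, then 17372, 14492 and 20287 at 24 h and finally 13675, 21613 and 15242 at 72 h. EtOH-fed rats had 20088, 20849 and 17403, then 30174, 23979 and 26056, then 14372, 16665 and 13750, and 12997, 12836 and 15052. The sum was thus highest at 6 h in both diets and lowest at 72 h in EtOH-fed rats, the group with the lowest rno-miR-29a. miR-145 rose by 0.53 at 6 h (limma adjusted p = 0.00803) and fell by 0.73 at 72 h (limma adjusted p = 0.000316), both against 0 h over both diets. The other 3 were not called at 6 h (list median -0.06), and at 72 h miR-199a-5p rose by 0.43 (limma adjusted p = 0.0292) while 2 were not called (list median -0.04).

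Red blood cell miRNAs (miR-451 and miR-144, 2 of 2 in the table, miR-144 the more abundant, none at 0) were also lower at 72 h than at 0 h. Their summed CPM in CHO-fed rats was 1972, 1306 and 2440 at 0 h and 661, 550 and 634 at 72 h. Among EtOH-fed rats it was 1916, 1915 and 3791 at 0 h and 707, 1898 and 1671 at 72 h. The groups did not overlap in either diet, by a narrow gap in EtOH-fed rats (1898 below 1915). miR-451 fell by 1.31 and miR-144 by 1.16 (limma adjusted p = 5.66e-05 and 0.00194).

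The hepatocyte list had 3 of 3 miRNAs in the table, with miR-122 making up 95.7% of it, and a summed CPM of 366272 to 785173 in untreated animals. At 6 h 1 of them was called, miR-192, which fell by 0.69 (limma adjusted p = 0.00592), while miR-122 was at 0.29 and not called (limma adjusted p = 0.0879). At 72 h miR-122 rose by 0.38 against 0 h (limma adjusted p = 0.0234). Of the leukocyte list 4 of 5 were in the table, with miR-142-3p the most abundant (36.6%) and a sum of 2512 to 4640 CPM in untreated animals; miR-342-3p rose by 0.68 at 6 h (limma adjusted p = 0.00476) and miR-150 fell by 0.70 at 72 h (limma adjusted p = 0.00194). In each case the other 3 were not called, and the list median was 0.19 at 6 h and 0.31 at 72 h. Of the bile duct list 1 of 3 was, miR-200b, at 232 to 608 CPM, which fell by 0.45 at 6 h (limma adjusted p = 0.0405). No value of these lists was 0. Of the calls at 72 h against 0 h in the marker lists, those of miR-122 and miR-199a-5p were lost with the set as a random block (limma adjusted p = 0.152 and 0.177).

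From 6 to 72 h over both diets every list held called markers, where 46.9% of all miRNAs were called. Not called were 2 of 3 hepatocyte, 2 of 4 mesenchymal, 1 of 2 red blood cell and 1 of 4 leukocyte miRNAs. Hepatocyte miR-192 rose by 0.87, mesenchymal miR-199a-3p rose by 0.43 and miR-145 fell by 1.26. Red blood cell miR-451 fell by 1.01 and bile duct miR-200b rose by 0.47. Of the leukocyte list miR-142-3p rose by 0.85, miR-150 fell by 0.99 and miR-342-3p fell by 0.43, all called by limma over both diets. At 24 h over all 12 groups of untreated, saline-treated and AM21-treated rats, 51.7% of all miRNAs were called. In the marker lists 1 hepatocyte miRNA was higher (miR-122, 0.30), 2 mesenchymal were higher and 2 lower, and 1 red blood cell lower (miR-451, -0.63). Of the leukocyte list 1 was higher (miR-223, 0.41) and 1 lower (miR-150, -0.50). None of the endothelial (miR-126, -0.21) and bile duct lists was called.

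In untreated animals at 24 h the members were not called, although 20.3% of all miRNAs were over both diets (1.4% in CHO-fed and 1.4% in EtOH-fed rats). rno-miR-29b was 10.23, 10.61 and 10.36 in CHO-fed and 10.24, 10.33 and 10.21 in EtOH-fed rats. rno-miR-29c was 12.23, 12.24 and 12.21 in CHO-fed and 12.38, 12.72 and 12.29 in EtOH-fed rats, and rno-miR-29a ran from 14.75 to 15.14 over all 6. These values overlap those of 0 h, except that the 3 EtOH-fed values of rno-miR-29a were below all 3 of 0 h (-0.14, limma adjusted p = 0.602). Differences over both diets were -0.07, -0.06 and -0.10 for rno-miR-29a, rno-miR-29b and rno-miR-29c (limma adjusted p = 0.750, 0.836 and 0.790). Without the animals under 100000 counts rno-miR-29c was -0.49 at 24 h and -0.46 at 72 h, both called (limma adjusted p = 0.0232 and 0.0147; 0.0232 to 0.973 and 0.0147 to 0.968 over the alternatives).

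With saline and AM21 animals added, 36 animals in 12 groups could be compared at 24 and 0 h, within sets 1 to 3. rno-miR-29b ran from 8.99 to 11.11 with a median of 9.96 in the 18 animals of 0 h and from 9.76 to 10.93 with a median of 10.34 in the 18 of 24 h. The ranges overlap widely, and the lowest value is replicate 2 of AM21-treated EtOH-fed rats at 0 h. Averaged over the 12 groups, rno-miR-29b rose by 0.35 (SE 0.13, 95% interval 0.08 to 0.61, limma adjusted p = 0.0270), a 1.27-fold difference. Within sets 1, 2 and 3 the mean difference was 0.37, 0.52 and 0.16, with 4, 4 and 3 of 6 groups higher. rno-miR-29c was 0.16 higher (SE 0.12, limma adjusted p = 0.305, not called) and rno-miR-29a lower, at -0.14 (SE 0.07, limma adjusted p = 0.0758, not called). It was called without replicate 1 of AM21-treated EtOH-fed rats at 0 h (-0.16, limma adjusted p = 0.0459) or replicate 2 of saline-treated CHO-fed rats at 0 h (-0.16, 0.0341), and with total counts (-0.29, 0.00111) or the geometric mean of the 100 highest probes (-0.17, 0.0490) as the scale. Of all miRNAs 51.7% were called here, against 1 of the 3 members.

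The call for rno-miR-29b at 24 h was lost without that AM21-treated replicate 2 (0.27, limma adjusted p = 0.0506), with total counts as the scale (0.20, 0.276), with the log10 total count as a covariate (0.23, 0.118) and without the animals under 100000 counts (0.25, 0.107). Over its alternatives the limma adjusted p ran from 0.00843 to 0.276. Split by treatment, rno-miR-29b at 24 h minus 0 h was -0.06 in untreated, 0.59 in saline-treated and 0.52 in AM21-treated rats, 6 animals against 6 in each. With untreated and saline animals together it was 0.26 in CHO-fed and 0.26 in EtOH-fed rats (limma adjusted p = 0.431 and 0.470), where 25.2% and 11.2% of all miRNAs were called and no member. In AM21-treated rats 14% were called and no member (rno-miR-29b limma adjusted p = 0.106), though rno-miR-29b was called without replicate 3 of EtOH-fed rats at 0 h (0.67, limma adjusted p = 0.0488). Within animals and over all treatments, rno-miR-29b minus rno-miR-29a rose by 0.49 from 0 to 24 h (two-sided permutation p = 0.00259 in 100000 resamples, adjusted p = 0.015) and rno-miR-29b minus rno-miR-29c by 0.19 (permutation p = 0.0197, adjusted p = 0.0394). Split by treatment, the former was 0.00 in untreated, 0.73 in saline-treated and 0.73 in AM21-treated rats and the latter 0.04, 0.19 and 0.35, and these splits were not tested. The call of rno-miR-29b minus rno-miR-29c was lost without any 1 of 15 of the 36 animals (0.16 to 0.19). The permutation tests of 24 h against 0 h also took all animals as independent. They include the untreated 0 h animals that deviated together by number, so their p may be too small as well. rno-miR-29c minus rno-miR-29a was 0.29 higher, with -0.03 in untreated, 0.53 in saline-treated and 0.38 in AM21-treated rats. The split was not tested, and over all treatments this pair did not pass (permutation p = 0.0471, adjusted p = 0.0807). It passed without replicate 1 of AM21-treated EtOH-fed rats at 0 h (0.33, permutation adjusted p = 0.0498) or untreated replicate 3 of 0 h in CHO-fed (0.35, 0.0285) or EtOH-fed rats (0.35, 0.0274).

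Diet was compared at each time point between animals of the same sets, and limma called no member in any of these comparisons. For untreated animals at 72 h, the 3 EtOH-fed values of rno-miR-29a lay below all 3 CHO-fed values. The difference was -0.40 (SE 0.15, 95% interval -0.71 to -0.08), and it did not pass the adjustment (limma adjusted p = 0.316). At the other time points the differences of rno-miR-29a between untreated EtOH-fed and CHO-fed rats were 0.09, -0.01 and -0.06 at 0, 6 and 24 h. Those of rno-miR-29b ran from -0.14 at 24 h to 0.15 at 0 h and those of rno-miR-29c from -0.11 at 72 h to 0.24 at 24 h, where the 3 EtOH-fed values lay above the 3 CHO-fed ones (limma adjusted p = 0.851). Of all miRNAs 2.1%, 0%, 2.1% and 0% were called at 0, 6, 24 and 72 h (26, 13, 16 and 14 had an unadjusted p under 0.05).

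Whether the course over time differed between the diets was tested with limma's F test on untreated animals. It called 0% of all miRNAs (8 had an unadjusted p under 0.05), and the members had p of 0.166, 0.833 and 0.851 in the order a, b, c (limma adjusted p above 0.99 in each). The larger fall of rno-miR-29a in EtOH-fed than in CHO-fed rats at 72 h is therefore not shown to differ between diets. Over untreated, saline and AM21 animals together, 14.7% of all miRNAs differed between diets at 0 h and 1.4% at 24 h, with no member among them (differences of -0.16 to 0.29). With total counts as the scale rno-miR-29a at 0 h was -0.28 and called (limma adjusted p = 0.0257), against -0.05 with the deposited scale. The change from 0 to 24 h differed between diets in 0% of them (17 at an unadjusted p under 0.05), with -0.11, 0.15 and 0.23 for rno-miR-29a, rno-miR-29b and rno-miR-29c (limma adjusted p = 0.752, 0.845 and 0.733).

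miR-21, the target of AM21, checks the treatment labels. In log2 CPM it ran from 6.65 to 7.76 in the 6 AM21-treated animals of 0 h and from 9.65 to 15.00 (median 14.02) in the 12 untreated and saline-treated ones. At 24 h it ran from 6.59 to 7.49 with AM21 and from 14.72 to 15.76 without. Every AM21-treated animal was below every control. EtOH-fed, saline-treated replicates 1 and 2 of 0 h stood apart from the other controls, at 11.12 and 9.65. Results of the members at 0 and 24 h were therefore also computed without these animals, a choice made after seeing the data. The 24 h increase of rno-miR-29b over the 12 groups was then 0.32 and no longer called (limma adjusted p = 0.0616).

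The members' levels under AM21 overlapped those of saline-treated rats, and not always those of untreated rats. In CHO-fed rats rno-miR-29b was 9.85, 10.07 and 9.62 with AM21 and 10.29, 9.51 and 9.67 with saline at 0 h, and 10.44, 9.89 and 10.12 with AM21 and 10.31, 10.07 and 10.38 with saline at 24 h. In EtOH-fed rats it was 10.16, 8.99 and 10.47 with AM21 and 9.44, 9.83 and 9.87 with saline at 0 h, and 10.83, 10.64 and 10.36 with AM21 and 10.67, 9.76 and 10.93 with saline at 24 h. AM21 and saline animals overlapped in each of these 4 pairs. Against untreated rats only the EtOH-fed AM21-treated animals of 24 h stood apart, all 3 above. rno-miR-29a at 0 h ran from 14.95 to 15.50 (median 15.22) in 6 AM21-treated, 14.84 to 15.41 (15.08) in 6 saline-treated and 14.72 to 15.13 (14.97) in 6 untreated animals. rno-miR-29c at 0 h ran from 11.88 to 12.86 (median 12.63), 11.73 to 12.52 (12.29) and 11.41 to 13.03 (12.67) in the same order. In CHO-fed rats all 3 AM21-treated values of rno-miR-29a at 0 h (15.19, 15.19 and 15.50) lay above the untreated ones. At 24 h rno-miR-29a ran from 14.88 to 15.23, 14.73 to 15.28 and 14.75 to 15.14 in AM21-treated, saline-treated and untreated animals, which overlap. rno-miR-29c at 24 h was 12.69, 12.39 and 12.42 with AM21 against 12.23, 12.24 and 12.21 untreated in CHO-fed rats, and 12.81, 12.95 and 12.83 against 12.38, 12.72 and 12.29 in EtOH-fed rats. All AM21-treated values were above the untreated ones of their diet, a mean difference of 0.34, while against saline it was 0.08 with overlap. These splits were not tested, and how many of all miRNAs separated in this way was not counted.

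Against untreated and saline animals together, AM21 gave differences at 0 h of 0.20 for rno-miR-29a (SE 0.10, limma adjusted p = 0.384), -0.22 for rno-miR-29b and 0.18 for rno-miR-29c. At 24 h they were 0.10, 0.04 and 0.21. No member passed, with limma adjusted p of 0.384 to 0.949, where 4.2% of all miRNAs were called at 0 h and 2.8% at 24 h. Taken over both times, the 95% intervals reached from -0.10 to 0.41 for rno-miR-29a, -0.61 to 0.43 for rno-miR-29b and -0.20 to 0.59 for rno-miR-29c, so changes of that size under AM21 could have gone undetected. The change from 0 to 24 h under AM21 minus that in controls was -0.10, 0.26 and 0.03 (limma adjusted p = 0.998 in each), with 0% of miRNAs called and 4 at an unadjusted p under 0.05. Saline against untreated animals, averaged over 0 and 24 h, gave 0.10, -0.30 and 0.01 (limma adjusted p = 0.971, 0.675 and 0.973), where 1.4% of all miRNAs were called. For rno-miR-29b the average joins -0.63 at 0 h and 0.02 at 24 h, and for rno-miR-29c -0.24 at 0 h and 0.26 at 24 h. These were not tested apart. The AM21 difference of rno-miR-29b at 0 h was 0.09 against saline and -0.53 against untreated animals.

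**Figure D2:**
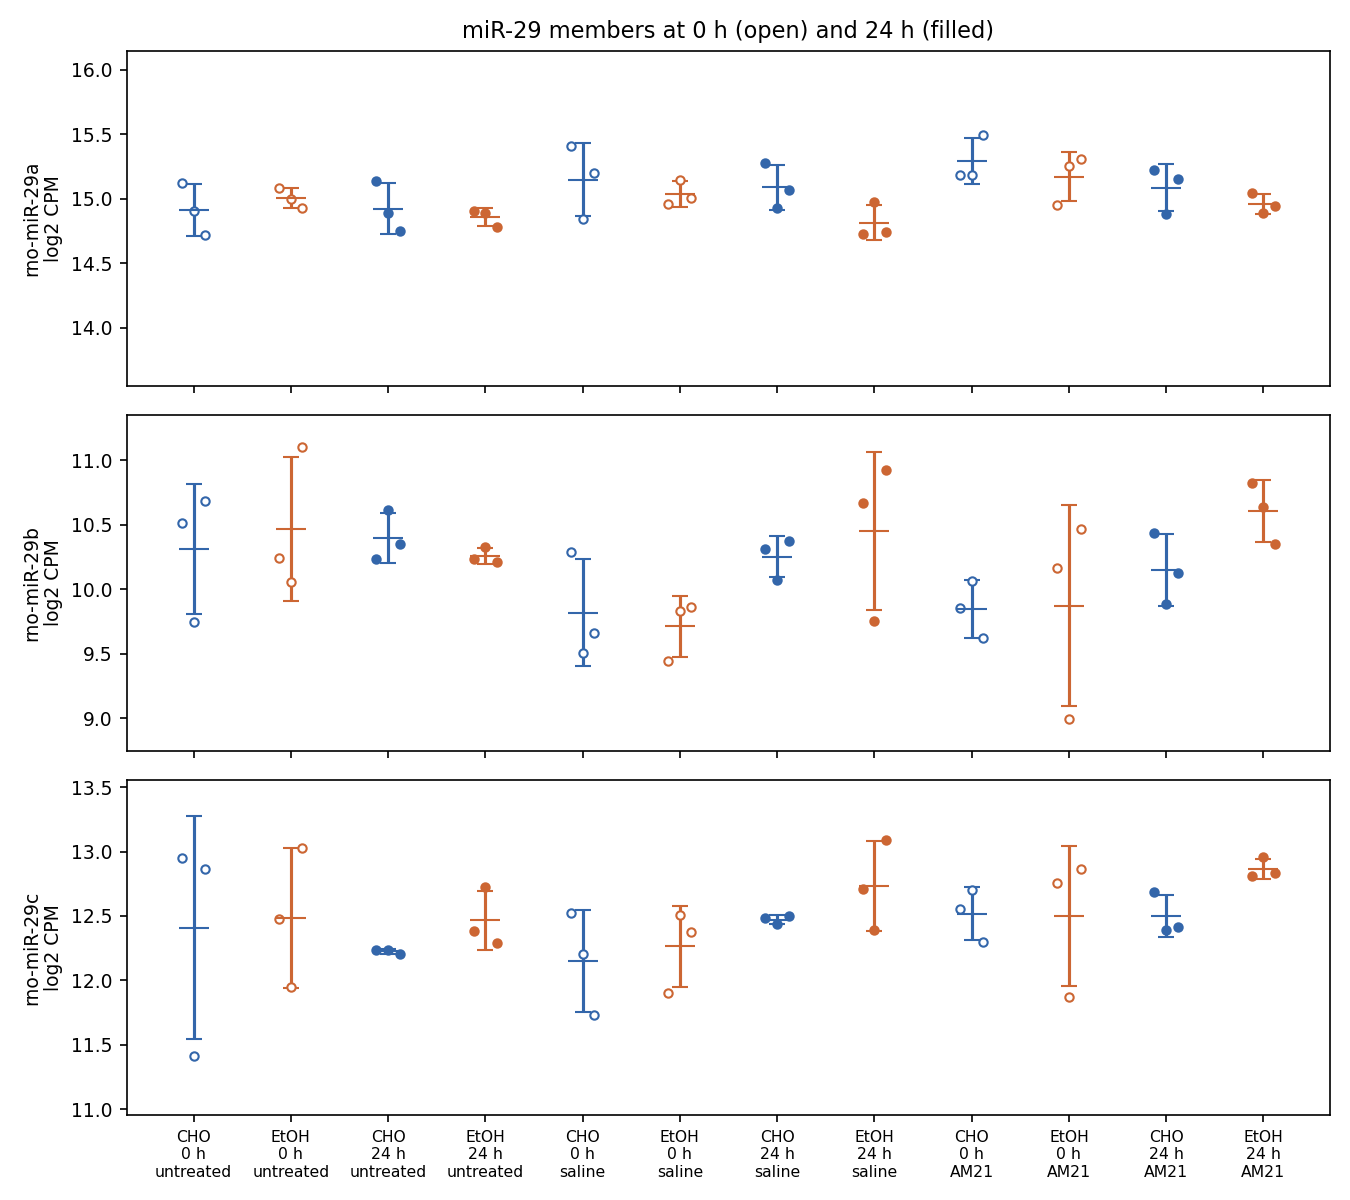
Levels of the 3 members in log2 CPM at 0 h (open) and 24 h (filled) in CHO-fed (blue) and EtOH-fed (red) rats that were untreated or given saline or AM21. Points are single animals, horizontal lines group means and bars the SD of 3 animals; AM21-treated and saline-treated animals overlap in every member, and the lowest rno-miR-29b, 8.99, is an AM21-treated EtOH-fed rat at 0 h.

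Within groups, rno-miR-29b and rno-miR-29c varied together, and over all animals rno-miR-29a was related to neither. Each animal's deviation from its group mean was used for 48 animals, with two-sided permutation p-values from 100000 shuffles within groups, adjusted over 6 relations. For rno-miR-29b and rno-miR-29c Pearson's r was 0.819 and Spearman's rho 0.795, each with a permutation p = 1e-05, the smallest that the shuffles can give (adjusted p = 6e-05). It was 0.800 without the 2 animals farthest from the median and 0.695, 0.813, 0.910 and 0.662 within sets 1 to 4 (12 animals each). Such deviations were not related to those of miRNAs outside the family. In the levels of the 48 animals, group differences left in, rno-miR-29c had an r of 0.764 with rno-miR-29b. It was 0.786 with miR-19a and 0.782 with miR-30e. For rno-miR-29b r was highest with rno-miR-29c, then 0.721 with miR-19a and 0.697 with miR-19b. For rno-miR-29a r was 0.028 with rno-miR-29b and 0.079 with rno-miR-29c (permutation p = 0.886 and 0.708). Within sets 1 to 4 the latter was 0.369, -0.246, -0.382 and 0.616, and the former 0.136, -0.225, -0.229 and 0.238, so the sign differed between sets. The 2 loci of rno-miR-29b are one next to rno-miR-29a and one next to rno-miR-29c, and the part of each locus, or of a probe reading more than 1 member, in this relation was not tested.

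The total count of an animal moved with rno-miR-29c. Between log10 total count and rno-miR-29c r was 0.520 (permutation p = 0.0159, adjusted p = 0.0476) and rho 0.359 (permutation p = 0.0559, adjusted p = 0.168). Without the 2 animals farthest from the median r was 0.376, and within sets 1 to 4 it was -0.028, 0.583, 0.647 and 0.516. For rno-miR-29b r was 0.343 (permutation p = 0.0959) and for rno-miR-29a -0.034 (permutation p = 0.841). The relation for rno-miR-29c thus did not hold in set 1 and was not past the threshold by rank.

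**Figure D3:**
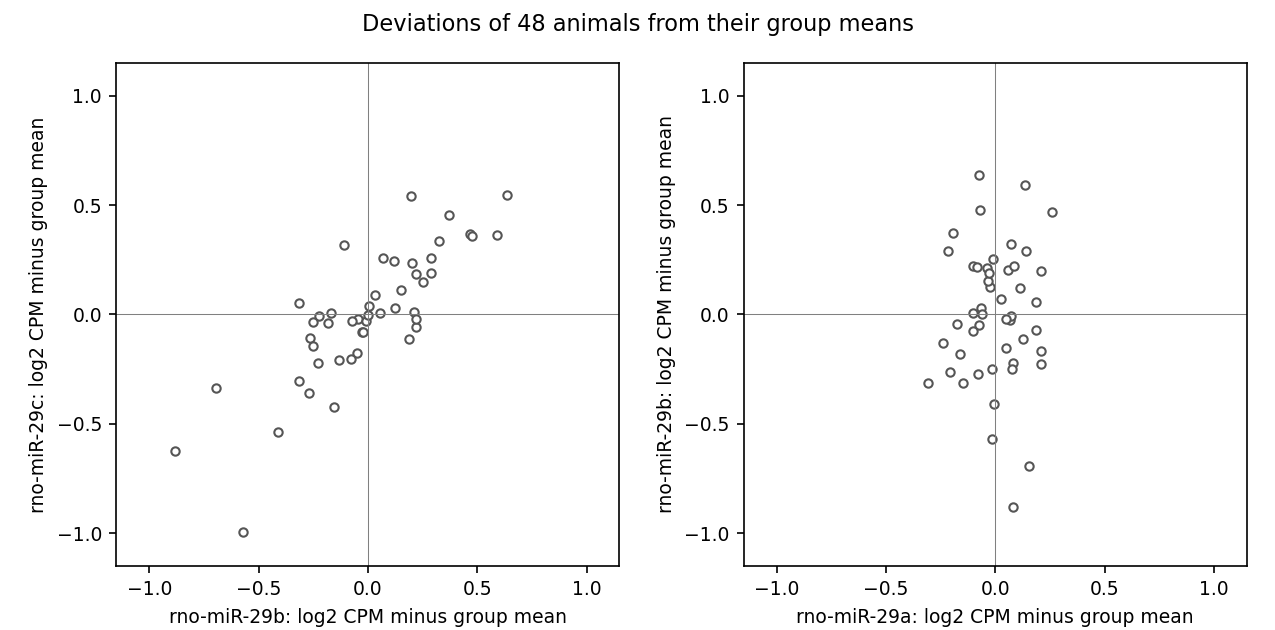
Deviations of 48 animals from their group means, in log2 CPM, with rno-miR-29c against rno-miR-29b on the left and rno-miR-29b against rno-miR-29a on the right. Each circle is 1 animal; the points on the left rise along the diagonal (r = 0.819) and those on the right do not (r = 0.028).

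Across the 16 group means, described without a test because they share animals, depth and scaling, r was 0.714 between rno-miR-29b and rno-miR-29c, -0.484 between rno-miR-29a and rno-miR-29b and 0.012 between rno-miR-29a and rno-miR-29c. Of the 142 other miRNAs, those whose group means were most like rno-miR-29a were let-7e (r = 0.749), miR-22 (0.728), miR-139-5p (0.726), miR-23b (0.711) and miR-100 (0.687), and the least like were miR-106b (-0.807) and miR-28 (-0.833). For rno-miR-29b they were miR-106b (0.769), miR-374 (0.762), miR-19a (0.760), miR-19b (0.755) and miR-3559-5p (0.719), with miR-150 (-0.729) and let-7e (-0.753) least alike. For rno-miR-29c they were miR-30e (0.784), miR-101b (0.784), miR-19a (0.770), miR-192 (0.765) and rno-miR-29b, with miR-125a-5p (-0.765) and miR-99b (-0.804) least alike. let-7e and miR-106b thus stand at opposite ends for rno-miR-29a and rno-miR-29b. With Spearman's rho, 4, 2 and 2 of the 5 most alike were named again for rno-miR-29a, rno-miR-29b and rno-miR-29c, and over single animals 3, 2 and 4.

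Stellate cell activation is the setting in which loss of miR-29 is best known, and the study gives signatures of miRNAs that go down or up when rat stellate cells are activated in culture. Only the names that it marks as overlapping with its own data were used here, so miR-10a, miR-151* and miR-422b of the signature that goes down were left out. rno-miR-29a is among those that go down and is left out of the counts that follow. Of the 22 other names used from that signature 20 were in the table, with miR-122 taking 82.8% of their summed CPM. Of 16 names that go up 14 were in the table, led by miR-21 with 22%. At 6 h over both diets 1 of the 20 was called higher and 5 lower (median -0.20 against 0.07 for all miRNAs), where 24.5% of all miRNAs were called. The lower ones were miR-99a (-0.58), miR-126 (-0.89), miR-192 (-0.69), let-7f (-0.52) and miR-335 (-0.96), and miR-207 was higher (0.44). Of these, miR-126 is mainly endothelial and miR-192 a hepatocyte miRNA. On the list of those that go up, 4 of 14 were called higher and 1 lower (median 0.21), with miR-31 (0.67), miR-145 (0.53), miR-132 (0.72) and miR-125b-5p (0.67) higher and miR-22 (-0.45) lower. With the set as a random block 0 of these 6 and 0 of these 5 calls were kept.

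At 72 h against 0 h, where rno-miR-29a fell, 3 of the 20 miRNAs that go down on activation were called higher and 5 lower, with a median of 0.02 against 0.03 for all miRNAs, of which 35.7% were called. Examples are miR-16 (1.31), miR-181a (-0.90) and miR-150 (-0.70). Of the 14 that go up, 4 were higher and 2 lower (median 0.05), among them miR-132 (0.89), miR-21 (0.86), miR-22 (-0.75) and miR-145 (-0.73). With the set as a random block 3 of the 8 and 4 of the 6 calls were kept, the named ones among them. Among all miRNAs 23 instead of 51 were then called. From 6 to 72 h the counts were 5 higher and 3 lower of 20 (median 0.18 against 0.02) and 2 higher and 4 lower of 14 (median -0.18), where 46.9% of all miRNAs were called. At 24 h over the 12 groups they were 6 higher and 7 lower of 20 (median -0.09 against 0.05) and 7 higher and 3 lower of 14 (median 0.14), where 51.7% of all miRNAs were called (42 higher and 32 lower). Whether any of these counts differs from those of all miRNAs was not tested.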

How the data were processed

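RNA of 48 livers was counted with a rat miRNA panel, of which the deposited table holds 3 members and 140 other miRNAs by a filter that is not stated. The authors scaled the counts by TMM with edgeR and deposited them as log2 CPM from voom of limma. Whole counts were recovered from these values for totals and alternative scalings, and all 6864 values lay within 0.001 of a whole count. Members were named by the rule that opens the report; they and the lists of stellate cell and cell-type miRNAs were chosen with earlier results of these data known. The lists for stellate cells are the part of the study's signatures that it marks as overlapping with its data, and the others follow general knowledge of cell types.

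The deposited log2 values were fitted in R 4.3.3 with limma 3.58.1 (lmFit, eBayes), with 1 mean per group: 24 untreated animals in 8 groups for the time course and 36 animals at 0 and 24 h in 12 groups for the rest. Comparisons at the same time point or against 0 h share animals. Python 3.11.15 with numpy 2.4.6, pandas 2.3.3, scipy 1.17.1 and matplotlib 3.10.9 gave the permutation tests, correlations and figures. The code was tested on simulated data. No further miRNA was filtered out and no animal left out of the main results.

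Alternatives were other scalings (RLE, the geometric mean of the 100 highest probes, total counts with and without miR-122), a filter of 50 counts in 3 animals, voom weights, a replicate block, other sets of animals in the fit, saline animals averaged in, the log10 total count as a covariate, no animals under 100000 counts, and each animal left out in turn. Leaving out the saline-treated animals low in miR-21 was added and chosen after seeing the data.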

Additional observations from a re-analysis of the deposited data

How the results depend on the processing

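Of 84 results of the members 12 were called by limma. Under other settings 972 of 1008 refits stayed on their side of the threshold, 20 lost a call and 16 gained one. With 1 animal left out these were 1120 of 1152, 26 and 6, and for differences between members 191 of 216, 20 and 5. No called result reversed. Among uncalled refits the sign changed in 81 (-0.62 to 0.37) and, with 1 animal left out, in 94 (-0.48 to 0.31), in 38 results whose main values lay between -0.22 and 0.26. The calls of rno-miR-29a at 72 h over both diets and in EtOH-fed rats, against 0 h and 6 h, and of rno-miR-29b from 6 to 72 h over both diets were kept in every refit. Counts of 54 to 120 for rno-miR-29b in CHO-fed rats at 6 h limit its precision there. Values follow with limma adjusted p, and the cause was not tested in any of them.

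The replicate numbers were not taken as pairs: of 66 pairs of groups at 0 and 24 h only 10 had all 3 same-number correlations over 0.1 (-0.49 to 0.79 overall), and the untreated 0 h groups of the diets were 1 of these 10 pairs. With a random block for the set, 3 instead of 35 miRNAs were called at 6 h over both diets, and rno-miR-29b was -0.81 (0.0589), in EtOH-fed rats -0.84 (0.110), and rno-miR-29c -0.64 (0.203). The fixed block at 0 and 24 h changed no call of a member.

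With only the groups compared, rno-miR-29b at 6 h in EtOH-fed rats was -0.84 (0.130), rno-miR-29c at 6 h over both diets -0.64 (0.118), and rno-miR-29c from 6 to 72 h 0.59 with CHO (0.0390) and 0.53 with EtOH (0.0354). With total counts, which moved the median of all miRNAs by up to -0.30 (72 h against 0 h in CHO-fed rats), rno-miR-29b in CHO-fed rats was -0.97 at 6 h (0.0428) and 0.70 from 6 to 72 h (0.0658), rno-miR-29c from 6 to 72 h 0.45 (0.122), rno-miR-29a in CHO-fed rats -0.56 at 72 h in untreated animals (0.0215) and -0.32 at 24 h in untreated and saline animals together (0.0416), rno-miR-29a over 12 groups at 24 h -0.29 (0.00111), rno-miR-29b there 0.20 (0.276), and rno-miR-29a in EtOH-fed against CHO-fed rats at 0 h, all treatments together, -0.28 (0.0257). With total counts without miR-122 (median moved by up to -0.14), rno-miR-29b was -0.72 at 6 h in EtOH-fed rats (0.0518) and 0.62 at 24 h under AM21 (0.0466), rno-miR-29a from 6 to 72 h in CHO-fed rats -0.43 (0.0403) and rno-miR-29c over both diets 0.43 (0.0614). With the geometric mean (median moved by up to -0.15) the latter were -0.42 (0.0473) and 0.43 (0.0607), and rno-miR-29a over 12 groups at 24 h was -0.17 (0.0490).

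With the log10 total as a covariate, rno-miR-29b was -0.82 at 6 h in CHO-fed rats (0.0282), 0.55 (0.220) and 0.60 (0.0925) from 6 to 72 h in CHO-fed and EtOH-fed rats and 0.23 over 12 groups at 24 h (0.118), and rno-miR-29c from 6 to 72 h was 0.0532 (0.853). With saline animals averaged in, rno-miR-29b at 6 h was -0.50 over both diets (0.0231, called) and -0.46 in EtOH-fed rats (0.173), and rno-miR-29a at 72 h in CHO-fed rats was -0.38 (0.0302). Without animals under 100000 counts, rno-miR-29c was -0.86 at 6 h in EtOH-fed rats (0.00834) and, over both diets, -0.49 at 24 h (0.0232), -0.46 at 72 h (0.0147) and 0.34 from 6 to 72 h (0.0962), and rno-miR-29b was 0.49 from 6 to 72 h in CHO-fed rats (0.261) and 0.25 over 12 groups (0.107). Without the saline animals low in miR-21 the last was 0.32 (0.0616).

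With 1 animal left out, rno-miR-29b at 6 h ran from -1.07 to -0.59 in CHO-fed and -1.04 to -0.52 in EtOH-fed rats, and rno-miR-29c from -1.07 to -0.30, -0.97 to -0.43, and -0.88 to -0.50 over both diets. From 6 to 72 h rno-miR-29b ran from 0.66 to 0.98 in CHO-fed and 0.71 to 0.96 in EtOH-fed rats and rno-miR-29c over both diets from 0.49 to 0.65. At 24 h rno-miR-29b ran from 0.30 to 0.67 under AM21 and 0.27 to 0.41 over 12 groups, and rno-miR-29a over 12 groups from -0.16 to -0.12. Minus rno-miR-29a, rno-miR-29b ran from -0.96 to -0.64 at 6 h and 0.38 to 0.69 at 72 h, and rno-miR-29c from -0.89 to -0.48 at 6 h and 0.21 to 0.35 at 24 h. rno-miR-29b minus rno-miR-29c ran from 0.16 to 0.23 at 24 h and from 0.15 to 0.34 from 6 to 72 h.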
